A study of Mus musculus with 2 samples.

Results

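Glycolysis and hypoxia response genes were followed across the cell types of the inflamed mouse central nervous system as a set of 33 genes chosen by symbol. All 33 were found in both libraries, among 32285 genes in all. They comprise glucose and lactate transporters, the enzymes of glycolysis, the regulators Pfkfb3, Pfkfb4 and Pdk1, the oxygen-sensing genes Hif1a, Egln1 and Egln3, 9 genes known to be induced by low oxygen, and Mif. Cells came from C57BL/6 mice with experimental autoimmune encephalomyelitis (EAE), an autoimmune disease of the brain and spinal cord induced with a myelin (MOG) peptide in complete Freund's adjuvant (CFA) and pertussis toxin (PTX), and were taken on day 15. The groups were WT and Stat4fl/flCD11cCre, in which Cre under the CD11c promoter targets Stat4, a transducer of IL-12 and IL-23 signals, in cells that use that promoter. Both groups were immunized, and neither holds healthy mice. The cells of each group were pooled, sorted for MHC class II and CD11c, and made into 1 library. The labels used here give neither the number of mice nor their ages.

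Glycolysis splits glucose into pyruvate in the cytosol, and lactate dehydrogenase turns pyruvate into lactate, which monocarboxylate transporters carry out of the cell. When oxygen is plentiful, prolyl hydroxylases of the Egln family mark the HIF-1 alpha protein for degradation. When oxygen is low, HIF-1 alpha persists, pairs with ARNT and binds DNA at a short ACGTG or GCGTG core, and it raises transcription of most glycolytic enzymes and of genes such as Vegfa and Bnip3. Inflammatory signals also raise HIF-1 alpha in activated macrophages, where a high glycolytic rate is well known. Microglia are the resident macrophages of the tissue, while monocytes enter it from blood during EAE.

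In WT there were 13820 barcodes and 122975017 UMIs (unique molecular identifiers, each a counted RNA molecule) assigned to genes, and in Stat4fl/flCD11cCre 12534 barcodes and 120221740 UMIs. After the cell filter 13298 and 12305 cells remained, with medians of 6440.5 and 6878 UMIs, and 43 barcodes occurred in both libraries. Cells were put into classes by marker genes, which gave a class to 9266 and 9492 cells. Markers of more than 1 class were found in 24.1% of WT and 17.5% of Stat4fl/flCD11cCre cells, which were left out. Classes outside the labelled sort were present: H2-Aa, an MHC class II gene, was found in 98.7% of WT conventional dendritic cells (DCs) but in 15.3% of WT neutrophils and 14.6% of WT T cells. Microglia made up 25.9% of the WT and 42.6% of the Stat4fl/flCD11cCre cells, and H2-Aa was found in 76.3% and 23.4% of them. Stat4 itself stood at 48.1 and 60.2 CPM (a gene's UMIs scaled to a total of 1e+06 gene UMIs) in conventional DCs of the WT and Stat4fl/flCD11cCre libraries. Reads of a 3' kit need not cover the deleted part of a gene, so the Stat4 level does not check the deletion. With 1 library per genotype there is no replicate and no p-value, and every 95% interval covers counting error only.

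A gene's level is its CPM over all gene UMIs of a class. CPM is not divided by gene length, since a 3' kit counts each RNA molecule once at its end. Monocytes and macrophages were split by Nos2 and Arg1, the enzymes that turn arginine into nitric oxide and into ornithine: Nos2 macrophages (2 or more Nos2 UMIs) numbered 204 in WT and 113 in Stat4fl/flCD11cCre, Arg1 macrophages (3 or more Arg1 UMIs without that Nos2 level) 607 and 526, and Arg1-low monocytes, the rest, 1473 and 1140. The Nos2 gate did not exclude Arg1. Arg1 stood at 1941 CPM in WT and 2546 in Stat4fl/flCD11cCre Nos2 macrophages, 1981 and 2418 in Arg1 macrophages, and 29.1 and 16.7 in Arg1-low monocytes. Nos2 and Arg1 macrophages are therefore both Arg1-rich classes that differ by the Nos2 gate. Both gate genes are themselves known to respond to HIF. The split also takes deeper cells, with median UMIs of 6840, 8815 and 8812 in the 3 WT classes in order from Arg1-low to Nos2. With every cell thinned to 2500 UMIs, 18 genes were highest in Nos2 macrophages in both libraries, against 20 without thinning.

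The glycolytic enzymes were most abundant in Nos2 macrophages and least abundant in microglia, plasmacytoid DCs and NK cells. In the median WT cell, the UMIs of 14 enzyme genes made up 1.15% of all UMIs in Nos2 macrophages, 0.945% in Arg1 macrophages and 0.51% in Arg1-low monocytes. The share was 0.657% in epithelial cells (gated on Enpp2, Kl, Folr1, Krt18 and Clic6, most of them known from choroid plexus), 0.425% in neutrophils and 0.337% in T cells. It was 0.294% in conventional DCs, 0.202% in microglia, 0.163% in NK cells and 0.144% in plasmacytoid DCs. The Stat4fl/flCD11cCre library had the same order for the 3 monocyte and macrophage classes, with 1.13%, 0.901% and 0.461%. The cells of a class spread widely: the middle 90% of WT Arg1-low monocytes ran from 0.212% to 1.32%, across most of the range of Arg1 macrophages (0.446% to 1.64%).

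**Figure D1:**
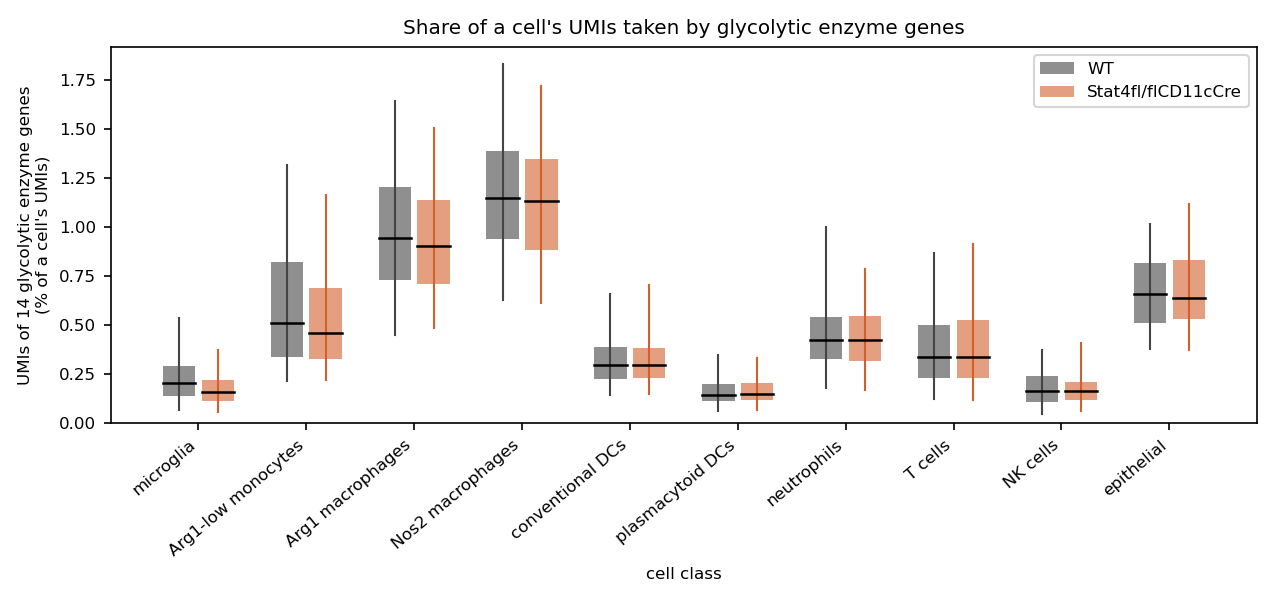
Share of each cell's UMIs (y axis, %) taken by 14 glycolytic enzyme genes in 10 cell classes (x axis), WT in grey and Stat4fl/flCD11cCre in orange. Boxes span the 25th to 75th percentile of cells, black lines the median and thin lines the 5th to 95th percentile; Nos2 macrophages have the highest medians, 1.15% and 1.13%, and microglia have 0.202% and 0.158%.

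Of the 33 genes, 20 had their highest level in Nos2 macrophages in both libraries, where 3.02% of 12264 genes with 100 or more UMIs in each library did (32 members passed that minimum, all but Adm). They were the transporters Slc2a1 and Slc16a3, 9 enzymes (Pfkl, Aldoa, Tpi1, Gapdh, Pgk1, Pgam1, Eno1, Pkm, Ldha), Hif1a, Egln1 and Egln3, the targets Bnip3, Bnip3l, Vegfa, Ankrd37 and Hilpda, and Mif. The interval overlapped that of the next class for Aldoa, Egln1, Vegfa and Ankrd37 in WT. It also did for Slc16a3, Eno1 and Bnip3l in Stat4fl/flCD11cCre. Microglia were highest for 4 genes (Hk2, Pfkfb3, Pdk1, P4ha1), neutrophils for 2 (Slc2a3, Pfkfb4), and conventional DCs (Pfkp), T cells (Ddit4) and epithelial cells (Hk1) for 1 each. The share of all genes highest in each of these classes was not counted, so these counts have no share to be read against. For Hk2 and P4ha1 the intervals of microglia and Nos2 macrophages overlapped in both libraries. For Hk1 those of epithelial cells and T cells overlapped in Stat4fl/flCD11cCre. Hk3, Gpi1, Ndrg1 and Adm had a different top class in each library. The members thus did not share 1 pattern: the heat map by class shows a block of enzymes and hypoxia targets along the macrophage classes, and single genes that stand outside it.

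**Figure D2:**
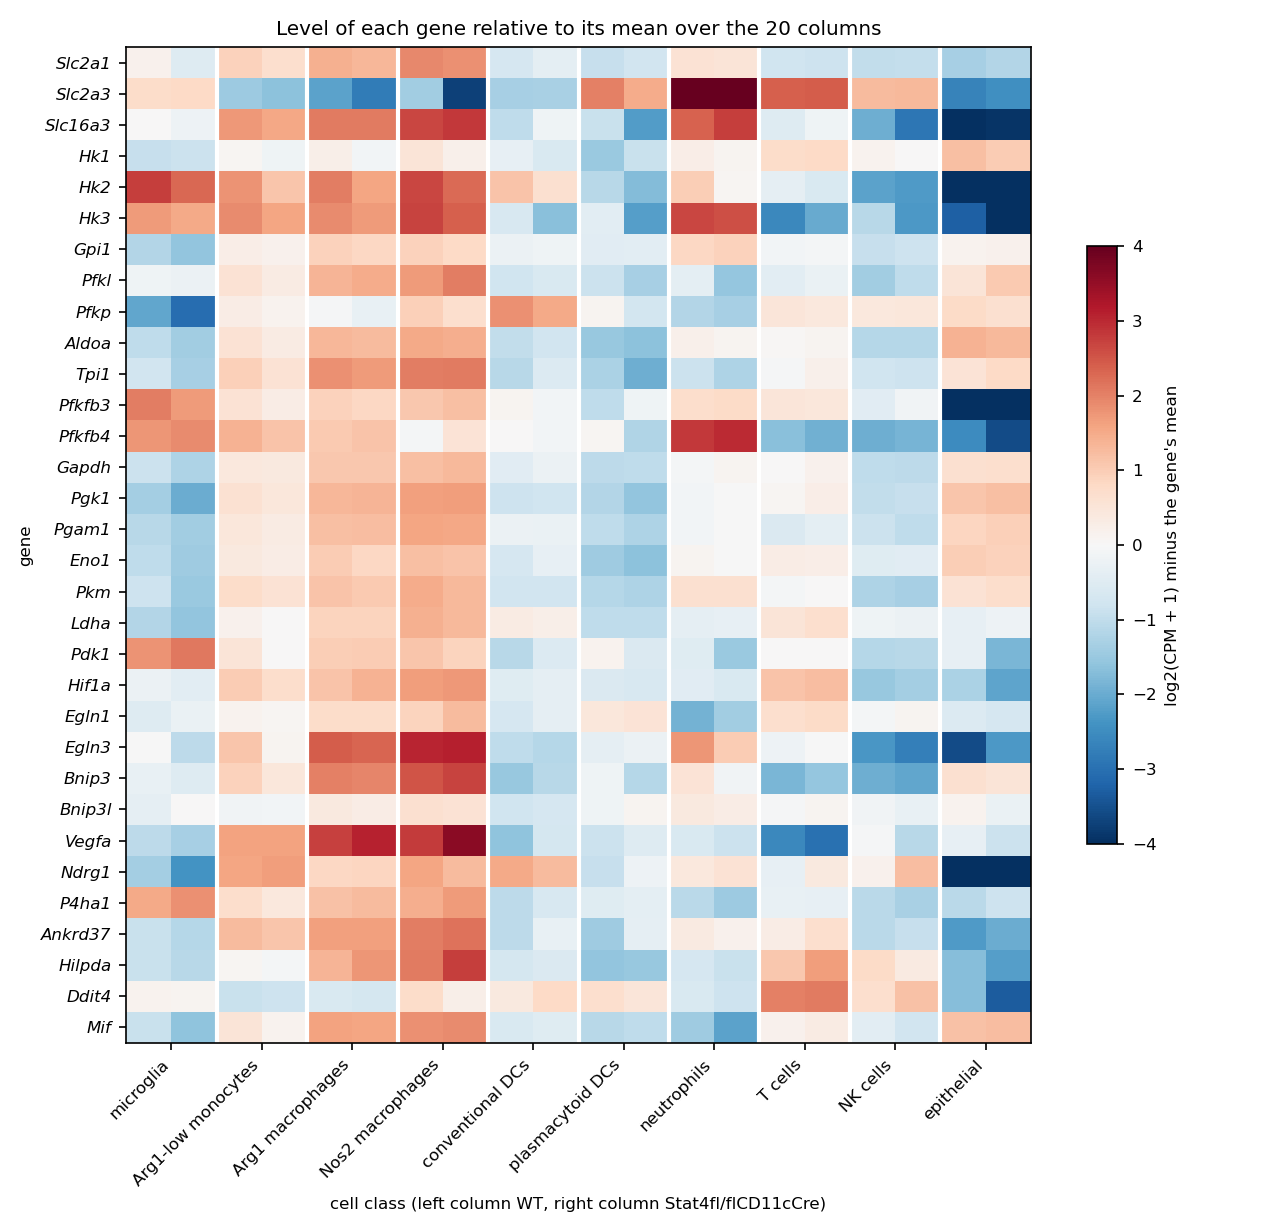
Level of each gene (rows; Adm, near 0 throughout, is left out) in 10 cell classes (column pairs, WT left and Stat4fl/flCD11cCre right), as log2(CPM + 1) minus the gene's mean over the 20 columns. Red is above and blue below that mean. Pfkl, Aldoa, Tpi1, Gapdh, Pgk1, Pgam1, Eno1, Pkm, Ldha and most hypoxia targets are reddest in Nos2 macrophages. Slc2a3 and Pfkfb4 are reddest in neutrophils, Pfkp in conventional DCs and Hk1 in epithelial cells. Hk2, Pfkfb3, Pdk1 and P4ha1 stand high in microglia, and the top class of Hk3 and Gpi1 differs between libraries.

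Promoter sequence was read because 20 members shared a top class. RefSeq promoter windows on the mouse assembly GRCm38.p6 matched 30 of the 33 genes. In the 250 bases before a start site, ACGTG was present on either strand in 19 of the 30 (63.3%), against 18.5% of 27025 genes in the same table. By window rather than gene the shares were 51.2% of 41 and 16.6% of 32851. Median GC content was 62.8% in member windows and 52.4% in all, and many members are on the list because they are known HIF targets, so the share describes the list. A palindromic CACGTG counts on both strands. The stretches printed are 80 bases long and read 5′ to 3′ on the gene's strand, none overlaps an annotated exon, and capitals mark each ACGTG or GCGTG on either strand (CACGT and CACGC are their complements). Pgk1, Ldha, Aldoa, Bnip3 and Egln3 are shown as genes highest in Nos2 macrophages, and Ddit4 as the gene highest in T cells. Hk2 and P4ha1 are shown as genes highest in microglia, with intervals that overlapped those of Nos2 macrophages in both libraries.
Pgk1: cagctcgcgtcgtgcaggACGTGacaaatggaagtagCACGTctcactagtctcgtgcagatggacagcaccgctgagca
Ldha: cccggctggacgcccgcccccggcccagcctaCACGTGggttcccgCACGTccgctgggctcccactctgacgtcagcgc
Aldoa: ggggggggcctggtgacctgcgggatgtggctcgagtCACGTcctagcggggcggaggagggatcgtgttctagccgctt
Bnip3: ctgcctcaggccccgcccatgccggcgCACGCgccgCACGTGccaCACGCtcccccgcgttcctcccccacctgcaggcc
Egln3: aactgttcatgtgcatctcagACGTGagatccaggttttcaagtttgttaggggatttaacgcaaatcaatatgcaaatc
Hk2: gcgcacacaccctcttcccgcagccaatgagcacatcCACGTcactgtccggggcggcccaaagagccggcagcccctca
P4ha1: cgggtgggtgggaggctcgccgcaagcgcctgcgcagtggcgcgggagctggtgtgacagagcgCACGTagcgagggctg
Ddit4: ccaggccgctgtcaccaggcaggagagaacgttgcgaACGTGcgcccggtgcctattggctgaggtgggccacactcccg

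The Pgk1 stretch lies at chrX:106186932-106187011 and the P4ha1 stretch at chr10:59323216-59323295, both on the plus strand, as does that of Ldha at chr7:46845724-46845803. On the minus strand lie Aldoa at chr7:126799338-126799417, Bnip3 at chr7:138909571-138909650, Egln3 at chr12:54204045-54204124, Hk2 at chr6:82774464-82774543 and Ddit4 at chr10:59951915-59951994. The ACGTG match nearest the start begins 34 bases before it in Ldha, 52 in Hk2, 16 in P4ha1 and 131 in Pgk1. The printed stretches were chosen among genes with an ACGTG match, so their shared letters follow from that choice. Pfkl, Tpi1, Gapdh, Eno1 and Mif, also highest in Nos2 macrophages, had no ACGTG in these windows. Nor did Pdk1, Pfkp, Pfkfb4 and Hk1, which had other top classes. The matches were not counted by top class. A match describes the sequence only, not binding.

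Among the transporters, the 2 glucose carriers differed in their top class. Slc2a1 (GLUT1) stood at 251 CPM in WT and 238 in Stat4fl/flCD11cCre Nos2 macrophages, 178 and 166 in Arg1 macrophages, and 124 and 106 in Arg1-low monocytes. It was 98.9 and 95.1 in neutrophils and 73.5 and 45.8 in microglia, and between 25.6 and 49.3 in the other 5 classes. Slc2a3 (GLUT3) was highest in neutrophils, at 243 and 260 CPM, followed by T cells at 68.2 and 70.6, plasmacytoid DCs at 52.7 and 36.5, NK cells at 31 and 31.4 and microglia at 21.1 and 22.3. In Nos2 macrophages, the class highest for Slc2a1, Slc2a3 stood at 4.09 and 0 CPM. With cells thinned to 2500 UMIs, 44.6% (95% interval 38.3 to 51.0) of WT and 43.8% (39.6 to 48.0) of Stat4fl/flCD11cCre neutrophils had a Slc2a3 UMI, against 0.167% and 0.381% of Arg1 macrophages. Thinning left out 136 WT and 159 Stat4fl/flCD11cCre neutrophils, and the unthinned shares were 47.5% and 58.1%. The lactate exporter Slc16a3 (MCT4) was high in both Nos2 macrophages (229 and 258 CPM) and neutrophils (186 and 245), and at most 31.4 in DCs and T cells.

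The 3 hexokinases, which phosphorylate glucose on entry, also divided the classes. Hk2 was the main one of microglia, at 505 CPM in WT and 364 in Stat4fl/flCD11cCre, and Nos2 macrophages followed at 475 and 356, with intervals that overlapped those of microglia in each library. Conventional DCs had 163 and 114, neutrophils 147 and 77.9, and T cells 57.7 and 47.7. Hk1 was highest in epithelial cells (73.6 and 65.1) and next in T cells (53.3 and 55.5). Hk3 was largely a myeloid transcript: Nos2 macrophages had 131 and 104 CPM and neutrophils 127 and 118, while T cells had 2.35 and 3.95.

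The upper enzymes, from glucose 6-phosphate to triose phosphates, divided: Pfkl, Aldoa and Tpi1 were highest in Nos2 macrophages in both libraries, and Gpi1 and Pfkp were not. Gpi1 stood at 501 and 458 CPM in Nos2 macrophages, 496 and 471 in Arg1 macrophages and 468 and 502 in neutrophils. Tpi1 stood at 934 and 964 CPM in Nos2 macrophages, 804 and 746 in Arg1 macrophages, 436 and 341 in Arg1-low monocytes, and 93.7 and 58.1 in plasmacytoid DCs, its lowest class. Aldoa stood at 1581 and 1538 CPM in Nos2 macrophages, and epithelial cells came close, at 1458 and 1358. The phosphofructokinases, which commit sugar to glycolysis, diverged: Pfkl was highest in Nos2 macrophages (138 and 175 CPM), whereas Pfkp was highest in conventional DCs (330 and 267) and lowest in microglia (21.2 and 10.3). Aldoa has a second row with the same symbol and 26 UMIs, which was not used.

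The lower enzymes, from glyceraldehyde 3-phosphate to lactate, were all highest in Nos2 macrophages. Gapdh stood there at 2965 and 3171 CPM, in Arg1 macrophages at 2763 and 2725, and in Arg1-low monocytes at 1735 and 1713. T cells had 1316 and 1450, neutrophils 1218 and 1391, microglia 718 and 547, and NK cells 645 and 626. Ldha, the lactate dehydrogenase subunit that favours lactate, stood at 1053 and 959 CPM in Nos2 macrophages, 723 and 728 in Arg1 macrophages, 551 and 624 in T cells and 494 and 456 in conventional DCs. Microglia had the lowest level in both libraries for Pgk1 (98.0 and 64.5 CPM), Pgam1 (125 and 102) and Ldha (173 and 129). Eno1 has a near copy, Eno1b, whose 1370 UMIs stood beside 48839 for Eno1. How reads that match both genes were counted was not checked.

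Regulators of flux went their own way. Pfkfb3 and Pfkfb4 set the level of fructose 2,6-bisphosphate, an activator of phosphofructokinase. Pfkfb3 was highest in microglia (144 and 113 CPM) and at most 79.2 elsewhere, and Pfkfb4 was highest in neutrophils (83.1 and 94.3), with microglia next (39.6 and 43.6). Pdk1, which holds pyruvate back from the mitochondrial dehydrogenase, stood at 64.5 and 80.9 CPM in microglia, while the next class had 39.4 in WT and 36.8 in Stat4fl/flCD11cCre. Microglia thus combined the lowest levels of several lower enzymes with the highest levels of Hk2, Pfkfb3 and Pdk1.

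Hif1a stood at 561 and 582 CPM in Nos2 macrophages, and T cells (388 and 410) and Arg1 macrophages (383 and 463) followed. NK cells had 60.6 and 68.3. The HIF hydroxylase Egln3, itself a HIF target, had the steepest contrast of the oxygen-sensing genes: 97.7 and 101 CPM in Nos2 macrophages, 62.6 and 58.6 in Arg1 macrophages, 24.7 and 11.7 in Arg1-low monocytes, 39.4 and 23.1 in neutrophils, and at most 10.8 in the other classes. Egln1 was flatter, from 12 and 17.4 in neutrophils to 89.5 and 116 in Nos2 macrophages.

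Of the hypoxia-induced genes, those tied to macrophages were Vegfa, which encodes an angiogenic growth factor, Bnip3, a mitophagy receptor, Hilpda, a lipid droplet protein, and Ankrd37. Vegfa stood at 174 CPM in WT and 306 in Stat4fl/flCD11cCre Nos2 macrophages, 167 and 209 in Arg1 macrophages, 75 and 75.7 in Arg1-low monocytes, and at most 23.4 in each other class. Bnip3 stood at 187 and 214 CPM in Nos2 macrophages and at 8.34 and 10.4 in T cells. Hilpda was also found outside the macrophages: T cells had 50.1 and 76.3 CPM, against 102 and 162 in Nos2 macrophages and 24.6 and 21.8 in Arg1-low monocytes. Arg1 macrophages, not T cells, were its second class in both libraries. Ddit4, an inhibitor of mTORC1, was highest in T cells (95.5 and 101). P4ha1, a collagen prolyl hydroxylase, was highest in microglia (184 and 232), with intervals that overlapped those of Nos2 macrophages. Bnip3l, the sister of Bnip3, varied least, between 68.3 and 190 CPM over all classes and libraries. Adm, a vasodilator peptide, stood at 2.73 CPM or less in each class. Mif, a cytokine, reached 1611 and 1694 CPM in Nos2 macrophages and 170 and 103 in neutrophils.

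**Figure D3:**
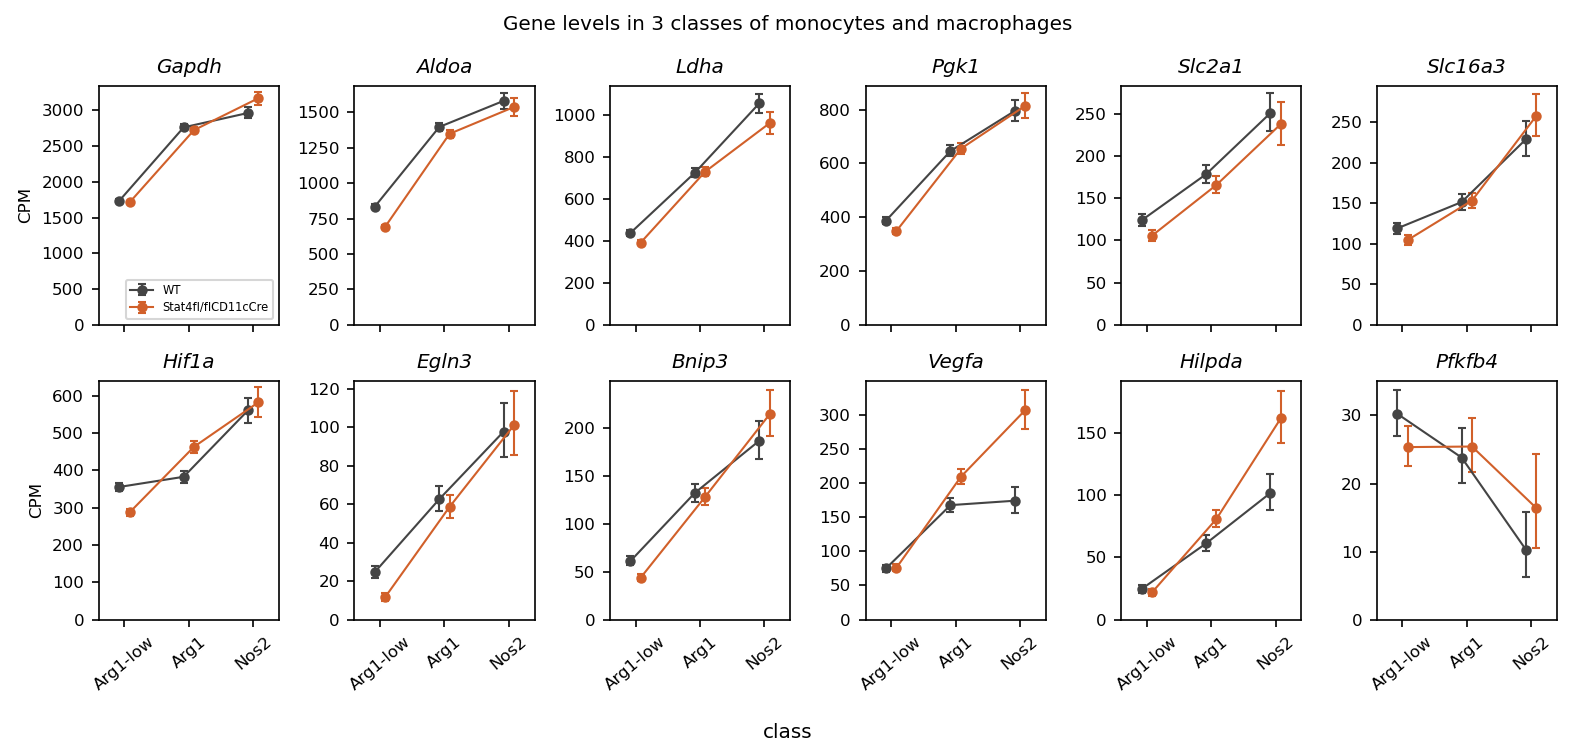
CPM (y axis, from 0, a scale for each gene) of 12 genes in Arg1-low monocytes, Arg1 macrophages and Nos2 macrophages (x axis), WT in grey and Stat4fl/flCD11cCre in orange, with 95% counting intervals. The 11 genes other than Pfkfb4 are higher in Nos2 macrophages than in Arg1-low monocytes in both libraries, Vegfa from 75 to 174 in WT and from 75.7 to 306 in Stat4fl/flCD11cCre, and Pfkfb4 is lower.

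Nos2 macrophages differed from Arg1-low monocytes across nearly the whole set. Of 31 members with 100 or more UMIs over both classes in each library, 26 were at least 1.5-fold higher in Nos2 macrophages in both libraries, where 5.20% of all 7613 genes were. Egln3 was among the most different, with log2 ratios of 1.98 in WT and 3.11 in Stat4fl/flCD11cCre, Hilpda with 2.05 and 2.89, Bnip3 with 1.61 and 2.29, and Vegfa with 1.21 and 2.02. The enzymes were closer together: 12 of 14 passed, with Gpi1 at 0.64 and 0.62, Ldha at 1.27 and 1.29 and Pfkl at 1.15 and 1.73. A single member, Pfkfb4, was lower with -1.56 and -0.63, where 7.57% of all genes were lower. The median of the members was 0.84 in WT and 1.15 in Stat4fl/flCD11cCre, against -0.06 and -0.10 for all genes tested.

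Arg1 macrophages stood between these classes. Over Arg1-low monocytes, 14 members were at least 1.5-fold higher in both libraries (3.77% of all genes were), among them 8 enzymes, Egln1, Egln3, Bnip3, Vegfa, Hilpda and Mif, and Ndrg1 was lower (5.16% of all genes). Nos2 over Arg1 macrophages left 7 members higher (2.66% of all genes): Slc16a3, Hk2, Hk3, Pfkp, Egln3, Hilpda and Ddit4. None of the enzymes below phosphofructokinase passed 1.5-fold in both libraries: Gapdh had log2 ratios of 0.10 and 0.22, Aldoa 0.18 and 0.19, Pgam1 0.37 and 0.32, Pkm 0.37 and 0.26 and Ldha 0.54 and 0.40. Pfkfb4 was the 1 member lower in Nos2 macrophages, with -1.22 and -0.63 (1.64% of all genes were lower).

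The share of cells with a Bnip3 UMI gave the same order at equal depth. At 2500 UMIs, a Bnip3 UMI was found in 34.0% of WT Nos2 macrophages (27.5 to 41.0), 26.9% of Arg1 macrophages (23.4 to 30.6) and 13.8% of Arg1-low monocytes (interval 12 to 15.7). In Stat4fl/flCD11cCre the shares were 38.1%, 22.1% and 10.6%. T cells gave 1.85% and 2.26% at the same depth, and the background from free RNA was not measured. Unthinned, the shares were 69.6%, 59.3% and 27% in WT and 83.2%, 65.6% and 27.4% in Stat4fl/flCD11cCre. Other targets did not all keep the order of Nos2 and Arg1 macrophages. In WT at 1500 UMIs these 2 classes had 17.6% and 17.8% for Vegfa and 7.35% and 8.25% for Ankrd37, while Hilpda had 13.2% and 7.59%.

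Microglia stood opposite to the monocytes. Of 32 members, 22 were at least 1.5-fold lower in microglia than in Arg1-low monocytes in both libraries (13.3% of all 10946 genes were lower), among them 12 of the 14 enzymes. The largest gap was that of Ndrg1, with log2 ratios of -3.12 and -4.57, and Vegfa had -2.76 and -3.08 and Pfkp -2.41 and -3.30. Higher in microglia were Slc2a3 (2.46 and 2.77), Hk2 (0.96 and 1.19), Pfkfb3 (1.48 and 1.41), Pdk1 (1.33 and 2.18), P4ha1 (0.83 and 1.43) and Ddit4 (1.09 and 1.00). That is 6 of 32, while 47.2% of all genes were higher in microglia.

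T cells exceeded NK cells for 21 of 27 members and were lower for none, where 10.9% of all genes were higher and 6.38% lower. Hif1a had log2 ratios of 2.68 in WT and 2.59 in Stat4fl/flCD11cCre, Slc16a3 1.56 and 3.03, and the ratios reached 1.03 and 1.21 for Gapdh and 1.19 and 1.26 for Aldoa. Slc2a1 differed by less, with 0.20 and 0.15. The summed level of 8 proliferation genes was 838 CPM in T cells and 557 in NK cells in WT, and 774 and 710 in Stat4fl/flCD11cCre, and its part in these ratios was not tested. Cells of the 2 classes came from the same libraries.

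Between genotypes, most members were lower in the microglia of the Stat4fl/flCD11cCre library and, by smaller amounts, in its Arg1-low monocytes, and few passed 1.5-fold in any class. A member is counted as higher or lower here when it differed at least 1.5-fold with 100 or more UMIs over both libraries. In microglia 7 of 32 members were lower and 0 higher, against 9.11% lower and 6.59% higher among 12113 genes (15.7% in either direction). They were Ndrg1, from 5.81 to 2.28 CPM (log2 ratio -1.35, interval -1.77 to -0.93), Egln3, from 10.6 to 4.79 (-1.15, -1.44 to -0.85), Pfkp, from 21.2 to 10.3 (-1.04, -1.24 to -0.84), Mif, from 243 to 150 (-0.70), Slc2a1, from 73.5 to 45.8 (-0.68), Pkm, from 248 to 156 (-0.66), and Pgk1, from 98.0 to 64.5 (-0.60). The median of the members was -0.31, against 0.10 for all genes.

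Small differences in microglia ran mostly the same way among enzymes. The interval lay below 0 for 22 members, 12 of the 14 enzymes among them, where 22.3% of all genes had such an interval. Gapdh had -0.39 (-0.42 to -0.36), Hk2 -0.47 (-0.51 to -0.43) and Ldha -0.43 (-0.49 to -0.37). Hypoxia genes were divided: the interval lay above 0 for Bnip3l (0.38), P4ha1 (0.33), Pdk1 (0.33), Egln1 (0.25) and Pfkfb4 (0.14), 5 members where 39.7% of all genes lay above 0. Vegfa had -0.31 and Bnip3 -0.21.

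Several other measures moved with genotype in microglia. The share with H2-Aa is given above. The summed level of 9 monocyte and macrophage markers was 256 CPM in WT and 139 in Stat4fl/flCD11cCre, that of the 8 proliferation genes 227 and 107, and ribosomal genes took 11.4% and 8.51% of UMIs. All 8 proliferation genes and 4 of 7 heat-shock genes were at least 1.5-fold lower. Microglia were therefore split by their H2-Aa UMIs, a split chosen after the data were seen. A fixed number of UMIs is not an equal level, since depth differed between the libraries. With 1 H2-Aa UMI (370 WT and 420 Stat4fl/flCD11cCre cells), the summed enzymes had a log2 ratio of -0.22 (-0.28 to -0.16). Among microglia with 0 H2-Aa UMIs (818 WT and 4012 Stat4fl/flCD11cCre cells), the summed enzymes had a log2 ratio of -0.37 (-0.41 to -0.34), and the interval lay below 0 for 9 of 13 enzymes and above 0 for none, where 14.9% and 18% of 10697 genes lay below and above 0. Among those with 2 or more (2258 and 806 cells), the ratio was -0.04 (-0.06 to -0.02), with 2 of 14 enzymes below and 2 above 0, where 13.1% and 19.1% of 10766 genes did. Gapdh had -0.35 in the former and 0.08 in the latter, and Mif -0.69 and -0.05. Of the 7 members lower over all microglia, Egln3 (-0.45) and Slc2a1 (-0.26) had intervals below 0 with 2 or more H2-Aa UMIs, Pfkp (0.27) had one above 0, and those of Pgk1, Pkm, Mif and Ndrg1 spanned 0. The Ndrg1 interval spanned 0 in both groups, at -0.87 (-2.03 to 0.47) with 0 UMIs and -0.47 (-0.995 to 0.0402) with 2 or more.

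Hk2 was lower whichever microglia were taken: from 534 to 371 CPM with 0 H2-Aa UMIs, and from 502 to 346 with 2 or more, a log2 ratio of -0.53 in each. Vegfa had a log2 ratio of 1.13 (0.86 to 1.40), from 13 to 28.4 CPM, with 2 or more H2-Aa UMIs. Without H2-Aa it had -1.37 (-2.19 to -0.50), from 5.23 to 2.02 CPM. That value rests on 18 WT and 46 Stat4fl/flCD11cCre Vegfa UMIs, under the minimum of 100 used for the class comparisons. The opposite direction is therefore described only. With 1 H2-Aa UMI, 8 WT and 7 Stat4fl/flCD11cCre Vegfa UMIs were found and the interval spanned 0. In the microglia with H2-Aa the monocyte and macrophage markers summed to 297 and 400 CPM and Arg1 to 50.3 and 76.6, against 109 and 40.7, and 8.14 and 1.45, in those without. The part of these markers in the enzyme and Vegfa values was not tested. Median depth also differed, with 5574.5 and 9084.5 UMIs in the microglia with H2-Aa and 3753.5 and 4885.5 in those without.

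**Figure D4:**
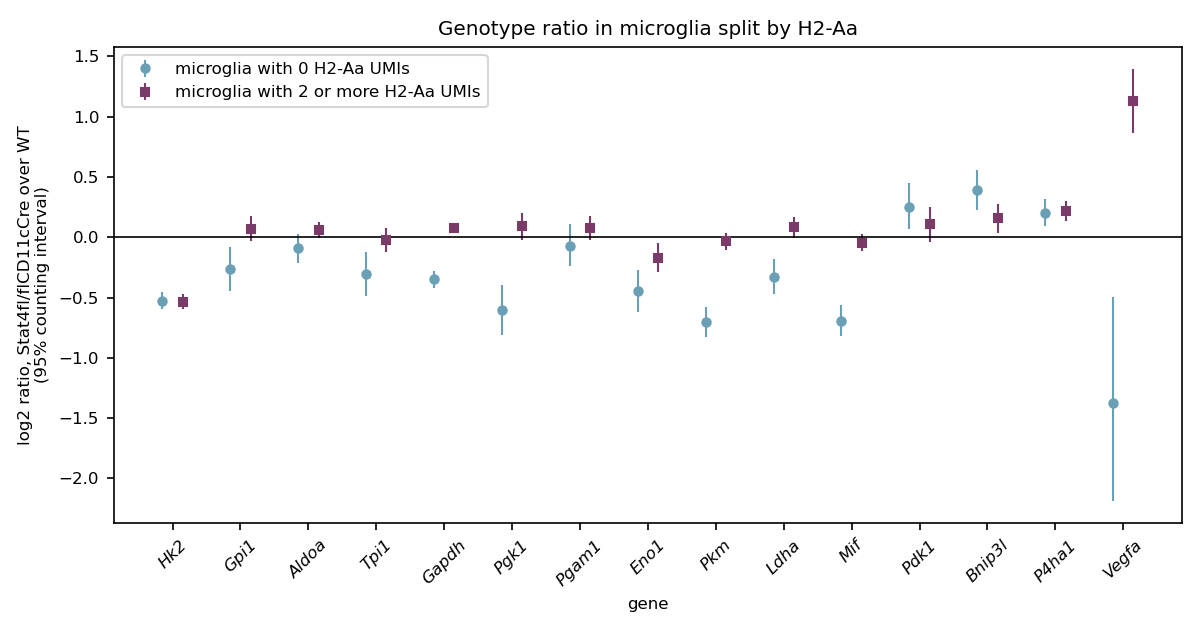
Log2 ratio of Stat4fl/flCD11cCre over WT (y axis, with 95% counting intervals) for 15 genes (x axis) in microglia with 0 H2-Aa UMIs (circles) and with 2 or more (squares). Most enzymes lie below 0 in the circles and near 0 in the squares, Hk2 lies at -0.53 in both, and Vegfa lies at -1.37 and 1.13. The Vegfa circle rests on 18 WT and 46 Stat4fl/flCD11cCre UMIs, under the minimum of 100 used for the class comparisons.

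In Arg1-low monocytes the differences were small and nearly all in 1 direction. Of 31 members, 23 had an interval below 0 and 0 above, where 17.6% and 16.0% of 9007 genes did, and the median was -0.19 against 0.00 for all genes. Both members past 1.5-fold were lower, 2 of 31, where 3.54% of all genes were lower, 1.74% higher and 5.28% either: Egln3, from 24.7 to 11.7 CPM (-1.08, -1.40 to -0.78), and Hk2, from 260 to 159 (-0.71, -0.80 to -0.62). Tpi1 had -0.36, Aldoa -0.27, Mif -0.37 and Bnip3 -0.48, while Gapdh had -0.02 (-0.05 to 0.01). In the same cells 7 of 8 proliferation genes were higher in Stat4fl/flCD11cCre, and their sum went from 139 to 246 CPM. Heat-shock genes Hspa1a (-1.20) and Hspa1b (-1.19) were lower. Their part in the member values was not tested.

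In Arg1 macrophages 0 of 31 members passed 1.5-fold, where 0.995% of all genes were higher, 1.65% lower and 2.64% either, and the median was -0.04. Hilpda (0.40, 0.21 to 0.60), Vegfa (0.32, 0.20 to 0.44) and Hif1a (0.27, 0.20 to 0.35) had intervals above 0, while Hk2 (-0.49), Hk1 (-0.34), Pfkp (-0.26) and Eno1 (-0.19) were among the 8 with intervals below 0. Such intervals were found above 0 for 8.79% and below 0 for 10.2% of all genes. Nos2 macrophages were too few for the comparison threshold of 200 cells in each library and are described only: Vegfa had a ratio of 0.82 (0.61 to 1.02), Hilpda 0.67 (0.39 to 0.95) and Hk2 -0.42 (-0.57 to -0.26), and Ldha had -0.14, Aldoa -0.04 and Pgk1 0.03. At 2500 UMIs, a Vegfa UMI was found in 27.1% (21.1 to 33.8) of WT and 45.1% (35.8 to 54.8) of Stat4fl/flCD11cCre Nos2 macrophages, and in 0.426% and 0.0984% of T cells. Unthinned, the Nos2 macrophage shares were 64.7% and 77.9%. A Hilpda UMI was found at that depth in 13.8% (9.37 to 19.3) and 22.1% (14.9 to 30.9) of Nos2 macrophages, whose intervals overlap, and at 1500 UMIs in 13.2% and 12.4%. In Arg1 macrophages the thinned Vegfa shares were 27.4% (23.8 to 31.1) and 30.1% (26.2 to 34.2), whose intervals overlap. The gate gene Nos2 stood at 664 and 387 CPM in the 2 libraries' Nos2 macrophages, and Arg1 at 1941 and 2546.

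Hk2 was lower in more classes than any other member: its interval lay below 0 in all 7 classes where it had 100 UMIs, and above 0 in none. These were microglia, the 3 monocyte and macrophage classes, conventional DCs (-0.52, from 163 to 114 CPM), neutrophils (-0.92) and T cells (-0.27, from 57.7 to 47.7 CPM). Pfkp came next, below 0 in 6 of 10 classes. Gapdh was below 0 in 1 class, microglia, and above 0 in 4. In the 7 classes of Hk2 taken singly, the share of all genes below 0 ran from 8.52% in T cells to 22.3% in microglia. The share of all genes below 0 in every class was not counted. Lower values across classes were not particular to Hk2. The heat-shock genes Hspa1a and Hspa1b were at least 1.5-fold lower in each of these classes except Nos2 macrophages. They were also lower in plasmacytoid DCs and NK cells. Their part in the Hk2 values was not tested. All classes of a genotype come from 1 library and are not separate samples.

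**Figure D5:**
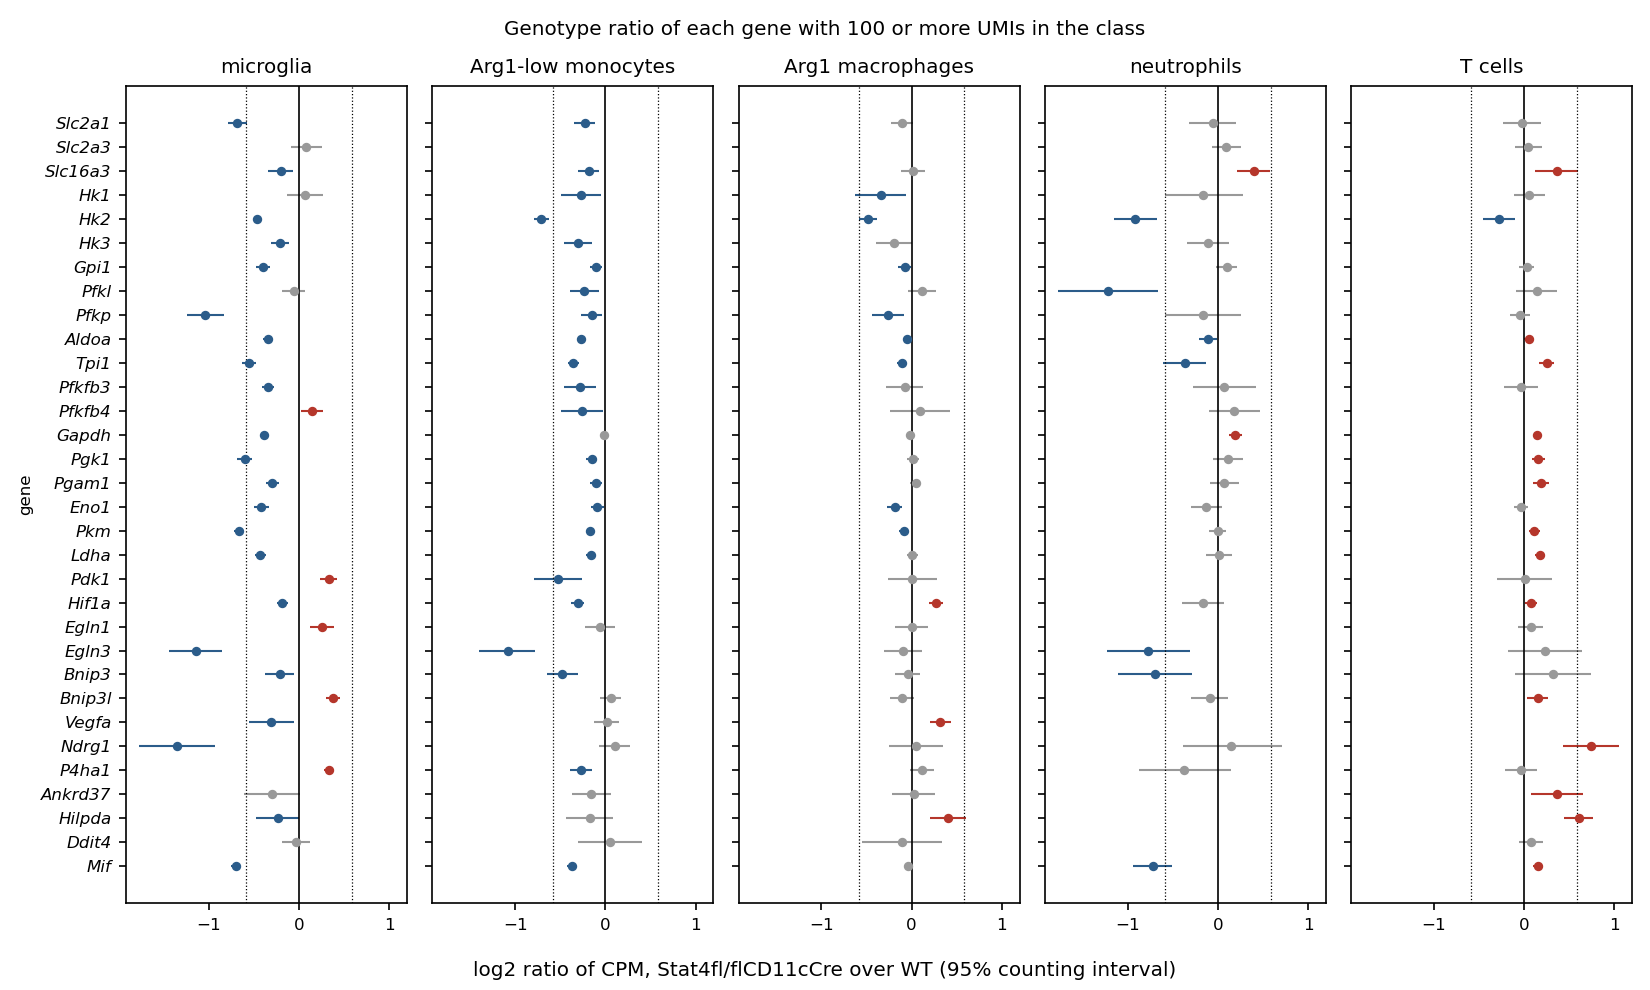
Log2 ratio of CPM, Stat4fl/flCD11cCre over WT (x axis), for each gene with 100 or more UMIs (rows) in 5 cell classes, with 95% counting intervals; blue intervals lie below 0, red above 0 and grey ones span 0, and dotted lines mark 1.5-fold. Microglia and Arg1-low monocytes hold mostly blue points (22 and 23), T cells mostly red and grey ones (14 red), and Hk2 is blue in all 5 panels.

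Neutrophils had 5 of 26 members lower and 0 higher, against 8.22% lower, 1.48% higher and 9.7% either among 4381 genes. Pfkl went from 31.7 to 13.7 CPM (-1.22, -1.77 to -0.66), Hk2 from 147 to 77.9 (-0.92, -1.16 to -0.68), Egln3 from 39.4 to 23.1 (-0.77), Mif from 170 to 103 (-0.72) and Bnip3 from 47.6 to 29.3 (-0.70). Slc16a3 (0.40, 0.22 to 0.58) and Gapdh (0.19, 0.12 to 0.26) lay above 0, as 8.1% of all genes did, and 7 members lay below 0, as 19.6% did. The median was -0.10, against -0.08 for all genes. Monocyte and macrophage markers summed to 4215 and 3249 CPM and proliferation genes to 566 and 372 in these neutrophils. With cells thinned to 2500 UMIs, which also left out 136 WT and 159 Stat4fl/flCD11cCre neutrophils, 1 member passed 1.5-fold, Mif had -0.07, Hk2 -0.74 and the median was 0.094.

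T cells went the other way by small amounts. The interval lay above 0 for 14 of 29 members and below 0 for 1, Hk2, where 13.8% and 8.52% of 9638 genes did, and the median was 0.11 against 0.02. Hilpda, from 50.1 to 76.3 CPM (0.61, 0.45 to 0.77), and Ndrg1, from 12.8 to 21.5 CPM (0.74, 0.43 to 1.06), passed 1.5-fold, where 1.62% of all genes were higher, 1.65% lower and 3.27% either. Ldha had 0.18 (0.13 to 0.23), Gapdh 0.14 (0.11 to 0.17) and Tpi1 0.25 (0.17 to 0.33). At 2500 UMIs a Hilpda UMI was found in 9.38% (8.17 to 10.7) of WT and 13.9% (11.8 to 16.2) of Stat4fl/flCD11cCre T cells, and in 2.46% and 2.45% of microglia. Unthinned, the T cell shares were 17.9% and 25.6%. Gated T cells were 2268 in WT and 1044 in Stat4fl/flCD11cCre, and the mix of T cell types within them was not compared.

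NK cells had 0 of 15 members past 1.5-fold (2.28% of all genes were higher, 1.67% lower and 3.95% either). Mif, at -0.36 (-0.56 to -0.16), was the 1 member with an interval below 0 and none lay above, where 6.41% and 10.8% of all genes did. Conventional DCs, which are known for CD11c expression, and plasmacytoid DCs were under the threshold in cell number. In conventional DCs (234 and 193 cells) Slc16a3 went from 16.8 to 31.4 CPM (0.90, 0.30 to 1.53) and Tpi1 from 105 to 156 (0.57, 0.32 to 0.82), while Ldha (-0.12, -0.24 to 0.01) and Pkm (0.01) had intervals that span 0. In plasmacytoid DCs (134 and 157 cells) Pfkp went from 101 to 54.8 CPM (-0.88, -1.36 to -0.40) and Tpi1 from 93.7 to 58.1 (-0.69, -1.17 to -0.21). In the same conventional DCs 7 of 10 immediate early genes were at least 1.5-fold higher (their list summed to 3310 CPM in WT and 5016 in Stat4fl/flCD11cCre) and 3 of 6 heat-shock genes lower, and in plasmacytoid DCs 5 of 8 were higher and 2 of 6 lower. The share of all genes past 1.5-fold was not counted in conventional or plasmacytoid DCs, so these counts have no share to be read against. The part of the immediate early and heat-shock genes in the member values was not tested.

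Neighbouring pathways were counted by the same rule and read against the same shares of all genes: 15.7% in either direction in microglia, 5.28% in Arg1-low monocytes, 2.64% in Arg1 macrophages, 9.7% in neutrophils, 3.27% in T cells and 3.95% in NK cells. In microglia 0 of 7 pentose phosphate genes, 0 of 8 other glycolytic genes, 0 of 8 genes of pyruvate entry into mitochondria and 0 of 7 other HIF pathway genes passed 1.5-fold, and of 12 further hypoxia-induced genes 1 did, the transcription factor Bhlhe40, from 23.2 to 10.7 CPM (-1.11). In Arg1-low monocytes 1 of 8 other glycolytic genes, Aldoc (-0.85), and 1 of 12 further hypoxia-induced genes, Gys1 (-0.87), glycogen synthase, were lower. In Arg1 macrophages 1 of 13 further hypoxia-induced genes was higher, Mxi1 (0.63). In T cells Epas1, which encodes HIF-2 alpha, was higher, from 8.06 to 12.6 CPM (0.64), 1 of 8 HIF pathway genes, as was Ldhb (0.71), 1 of 7 other glycolytic genes, while the pyruvate dehydrogenase phosphatase Pdp1 (-0.74), 1 of 7 genes of pyruvate entry, was lower. In neutrophils Bhlhe40 (-0.70) and Fam162a (-0.73), 2 of 11 further hypoxia-induced genes, and Pdk3 (-0.80), a kinase like Pdk1 and 1 of 4 genes of pyruvate entry, were lower. In NK cells Mpc2 (-0.66), a subunit of the mitochondrial pyruvate carrier, was lower, 1 of 4 genes of pyruvate entry, and Cited2 (0.72) was higher, 1 of 5 further hypoxia-induced genes.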

How the data were processed

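For each of the 2 libraries the authors deposited a matrix of raw UMI counts. The file headers name Cell Ranger 7.0.0 as its source. Also listed in the submitters' processing notes, without roles, are mm10, bcl2fastq, STAR, Seurat and R 4.3.0. Totals leave out 5 antibody tags in the same matrix (18118382 and 17306907 UMIs in WT and Stat4fl/flCD11cCre). Whether doublets were removed before deposit is not given in the sources used here.

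Barcodes with 500 or more genes, 1000 or more gene UMIs and under 10% mitochondrial UMIs were kept. A class needed 3 or more different markers of 1 of 10 lists (microglia, for example, by Tmem119, P2ry12, Sall1 and others), the list with the highest share found won, and cells whose next list exceeded 0.5 of that share were left out as mixed (3199 WT, 2150 Stat4fl/flCD11cCre), as were 833 and 663 with too few markers. No doublet caller was used for the main values; of the 10% of cells with the highest Scrublet scores (scanpy 1.11.5), 1091 of 1330 in WT and 909 of 1230 in Stat4fl/flCD11cCre were already left out for mixed markers. A class was compared where both libraries had at least 200 of its cells, and described from 50 up.

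UMIs were summed per library and class. Levels carry exact Poisson and ratios exact conditional binomial intervals, shares exact Clopper-Pearson intervals, at the 95% level. No test across samples was possible. The ratio step was run on simulated Poisson counts with known folds. Those counts follow the model that the intervals assume and hold no variation between cells or libraries, so the run checks the computation only. All members are accounted for, and those past 1.5-fold whose interval excludes a ratio of 1 are named in each compared class, with up to 4 genes of each other list. The members, markers and lists were chosen with earlier results of these data known. Alternatives tried were the UMI minimum, marker number, cell filter, Scrublet removal, scaling and thinning. Positions of promoter stretches are from RefSeq on GRCm38.p6, and exons from GENCODE on GRCm38.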

Additional observations from a re-analysis of the deposited data

Results flagged for a closer look

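Ndrg1, a stress-responsive gene known to be induced by hypoxia, differed in opposite directions between cell types: its log2 ratio of Stat4fl/flCD11cCre over WT was -1.35 in microglia and 0.74 in T cells. The difference between the 2 cell types was not tested, since each genotype has 1 library. Its level was low in both, at 5.81 and 2.28 CPM in WT and Stat4fl/flCD11cCre microglia and 12.8 and 21.5 CPM in T cells. The microglial ratio was -0.87 (95% counting interval -2.03 to 0.47) in microglia with 0 H2-Aa UMIs, -0.47 (-0.995 to 0.0402) in those with 2 or more, and -0.56 with cells of 2 classes kept, so the interval spans 0 in each of the H2-Aa groups. In T cells the ratio ranged from 0.45 to 0.85 over the alternatives.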

How the results depend on the processing

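No paired analysis was possible because each genotype has 1 library. The 20 genes highest in Nos2 macrophages ranged from 18 to 21 in number over the alternatives, and the 4 highest in microglia became 2 with totals without mitochondrial, ribosomal and haemoglobin genes and 2 with cells of 2 classes kept. The microglial median of -0.31 and count of 7 became 0.066 and 1 in microglia with 2 or more H2-Aa UMIs, where Pfkp (0.27) and Pgk1 (0.089, interval spanning 0) changed direction and Ndrg1 went from -1.35 to -0.47; this split and the keeping of cells of 2 classes were chosen after the data were seen. The neutrophil median became 0.00 at a minimum of 300 UMIs (-0.00276 unrounded) and 0.094, in the opposite direction, with thinned cells, and the count of 5 became 2 at that minimum, 3 with 4 markers and 1 with thinning. NK cells had 2 members past 1.5-fold at a minimum of 30 UMIs, 1 with thinning and 2 with cells of 2 classes kept. T cells had 1 when centred on the median of all genes, and 1, with a median of 0.040, with cells of 2 classes kept; Arg1 macrophages then had 1 and a median of 0.019. The cause of these changes was not tested. Centring moved all genes of microglia by 0.10, to a member median of -0.41. A Vegfa UMI was found, unthinned and at 1500 UMIs, in 52.9% and 17.8% of WT and 64.1% and 20.7% of Stat4fl/flCD11cCre Arg1 macrophages, and in 64.7% and 17.6% of WT and 77.9% and 28.3% of Stat4fl/flCD11cCre Nos2 macrophages. Unthinned Hilpda shares were 22.7% and 30.2% in Arg1 and 33.8% and 49.6% in Nos2 macrophages, while at 1500 UMIs WT Nos2 macrophages had 13.2% (8.91 to 18.7) and those of Stat4fl/flCD11cCre 12.4% (6.94 to 19.9), so the higher Stat4fl/flCD11cCre share of Nos2 macrophages did not hold there. Adm passed the minimum of 100 UMIs in no class, and 15 members passed it in NK cells, 14 in plasmacytoid DCs and 14 in epithelial cells.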

Other observations

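B cells were too few to describe above, with 70 cells in WT and 33 in Stat4fl/flCD11cCre, and were singled out after their values were seen. Gapdh stood at 375 CPM in WT and 1078 in Stat4fl/flCD11cCre B cells, Ldha at 112 and 533, and Mif at 155 and 873. The 8 proliferation genes summed to 28.1 and 3354 CPM in the same cells, and the part of these genes in the enzyme values was not tested. The median B cell differed far less than the sum, with 0.116% and 0.139% of UMIs from the 14 enzyme genes. Granulocyte-monocyte progenitors, 18 cells in WT and 30 in Stat4fl/flCD11cCre, had high enzyme levels in both libraries, with Gapdh at 2121 and 2013 CPM, Pgam1 at 653 and 670 and Mif at 966 and 1109, and proliferation genes at 1366 and 1413 CPM.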
